A study of Mus musculus with 24 samples.

Results

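GABA, the main inhibitory transmitter of the brain, and glutamate, the main excitatory one, are made, packed, taken up and broken down by a small set of enzymes and transporters, and 8 of their genes are described here: Gad1, Gad2, Slc32a1, Abat, Slc6a11, Slc1a2, Slc1a3 and Glul. They were measured in the ventromedial hypothalamus (VMH), a nucleus that regulates energy balance, on Affymetrix arrays. A gene was represented by the brightest array row that the platform annotation assigns to its symbol alone. Of the 8 genes, 7 had such a row, 1 each, among 16211 genes tested in VMH. Glul, which encodes glutamine synthetase, is annotated only on a row that also carries a microRNA symbol, so it was not analysed here, and a further row shared by Slc1a2 and Gm13872 was not used either.

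The arrays came from mice labelled Gfap-Bmal1 cKO, in which the clock gene Bmal1 is deleted conditionally, and from mice labelled control (WT in their titles). Both genotypes ate a standard diet (SD) or, for the same 16 weeks, a high fat diet (HFD). The 4 VMH groups, cKO on SD, control on SD, cKO on HFD and control on HFD, held 3 arrays each. Total RNA was taken from VMH dissected out of 100 µm brain sections, so a lower signal from fewer cells of a type and from less RNA per cell cannot be told apart. Gfap is a gene of astrocytes, but the labels give neither the Cre line nor the age, sex or strain of the mice, and do not say whether control mice carried floxed alleles or Cre. Nor is it stated whether each array is a different animal, and the spread behind every p-value may therefore be technical.

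In this tissue GABA is made from glutamate by 2 decarboxylases, loaded into synaptic vesicles by a transporter in the vesicle membrane, and cleared from the synapse by transporters of neurons and astrocytes. Astrocytes also take up most synaptic glutamate and return it to neurons as glutamine. VMH neurons themselves are mostly glutamatergic, and the GABA neurons of the medial basal hypothalamus lie largely around the nucleus.

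The deposited values are log2 signals, with array medians from 5.482 to 5.572 in VMH. Genes were tested when their mean reached the median of the table, 5.5069. VMH neuron genes were present on every array: Fezf1 ranged from 14.56 to 15.60 and Nr5a1 from 7.53 to 8.47. The targeted gene, Bmal1 (Arntl), was not lower in arrays labelled cKO, and its means were higher there on both diets. On the standard diet they were 9.17 ± 0.21 in cKO and 8.62 ± 0.16 in control (SD, n = 3 each). On HFD they were 9.19 ± 0.30 in cKO and 8.95 ± 0.23 in control (SD, n = 3 each). The difference was 0.55 on the standard diet, 0.24 on HFD and 0.40 averaged over diets. None passed the test used below (limma adjusted p = 0.536, 0.615 and 0.243). The labels do not give the deleted exons, a row outside them would check nothing, and every direction below rests on the label. cKO HFD array 2 stood apart in pituitary hormone genes, with a Gh signal of 13.74 and a Prl signal of 17.37, against 4.80 to 5.47 and 4.11 to 4.58 on the other 11 VMH arrays. Some results below are also given without that array, and the marker levels and other HFD values include it.

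The start regions of the 3 GABA neuron genes, which varied together between arrays, and of Slc1a2, which had the smallest p between genotypes of the 7, are shown here from RefSeq on GRCm38.p6, each 250 bases before to 50 bases after the annotated start and read 5′ to 3′ on the strand of the gene. Capitals mark CG dinucleotides, which number 21 in Gad1, 14 in Gad2, 17 in Slc32a1 and 1 in Slc1a2. The median over 32851 such windows was 7. As many or fewer were found in 76.9%, 65.4%, 70.3% and 14.1% of all windows, in the same order. Each gene has 1 window here, at 1 annotated start, and whether that start is used in VMH was not tested. The Gad1 window is chr2:70561879-70562178, that of Gad2 is chr2:22622077-22622376, that of Slc32a1 is chr2:158610508-158610807 and that of Slc1a2 is chr2:102706188-102706487, all on the plus strand.
Gad1: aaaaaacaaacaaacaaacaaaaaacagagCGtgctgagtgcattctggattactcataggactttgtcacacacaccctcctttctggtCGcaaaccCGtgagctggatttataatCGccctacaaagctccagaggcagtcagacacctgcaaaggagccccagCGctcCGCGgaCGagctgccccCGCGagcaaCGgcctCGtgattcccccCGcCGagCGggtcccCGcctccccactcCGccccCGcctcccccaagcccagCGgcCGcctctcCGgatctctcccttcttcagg
Gad2: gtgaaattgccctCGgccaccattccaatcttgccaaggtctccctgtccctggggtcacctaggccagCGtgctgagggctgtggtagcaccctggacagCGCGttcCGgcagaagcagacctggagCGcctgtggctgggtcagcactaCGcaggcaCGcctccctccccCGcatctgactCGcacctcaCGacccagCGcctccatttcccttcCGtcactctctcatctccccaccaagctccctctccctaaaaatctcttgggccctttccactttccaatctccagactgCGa
Slc32a1: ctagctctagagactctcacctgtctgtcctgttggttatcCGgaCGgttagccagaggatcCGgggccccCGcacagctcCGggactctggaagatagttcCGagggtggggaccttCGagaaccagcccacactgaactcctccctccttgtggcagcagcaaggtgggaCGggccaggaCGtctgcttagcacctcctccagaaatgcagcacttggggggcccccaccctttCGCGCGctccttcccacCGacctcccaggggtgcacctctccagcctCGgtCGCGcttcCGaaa
Slc1a2: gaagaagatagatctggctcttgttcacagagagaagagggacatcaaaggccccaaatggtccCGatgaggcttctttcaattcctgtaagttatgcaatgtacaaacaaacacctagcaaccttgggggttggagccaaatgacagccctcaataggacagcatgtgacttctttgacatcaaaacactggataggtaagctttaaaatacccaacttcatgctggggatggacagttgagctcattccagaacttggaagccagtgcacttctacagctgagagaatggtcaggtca
The E-box CACGTG, which reads the same on both strands and is known as a motif bound by BMAL1, was found in 0 of the 7 windows of the 8 genes that the table holds (that of Abat is not among them). It was found in 7.15% of all windows. This says only that these letters are not in these windows.

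None of the 7 measured genes passed the threshold in any comparison. limma, which fits every gene across the 12 VMH arrays, called 0 of 7 between genotypes on SD, where 0.271% of all genes passed an adjusted p of 0.05, and 0 of 7 on HFD, where 0.302% did. Averaged over diets it called 0 of 7, against 0.66% of all genes. At an unadjusted p under 0.05 Slc1a2 alone of the 7 passed in each of these 3 comparisons, as did 6.71%, 11.3% and 11.5% of all genes. For HFD against SD it called 0 of 7 in cKO and 0 of 7 in control, against 0.00617% and 0% of all genes. At an unadjusted p under 0.05 these counts were 0 of 7 in cKO and 1 of 7 in control (Slc6a11), against 9.56% and 8.49% of all genes. For the interaction of genotype and diet the counts were 0 of 7 by limma, with 0% of all genes, and 0 of 7 at an unadjusted p under 0.05, with 5.62% of all genes. The median difference of the 7 genes was -0.04 between genotypes on SD and -0.01 on HFD, beside 0.02 and 0.03 over all genes, and for HFD minus SD it was -0.16 in cKO and -0.28 in control, beside 0.03 and 0.02.

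**Figure D1:**
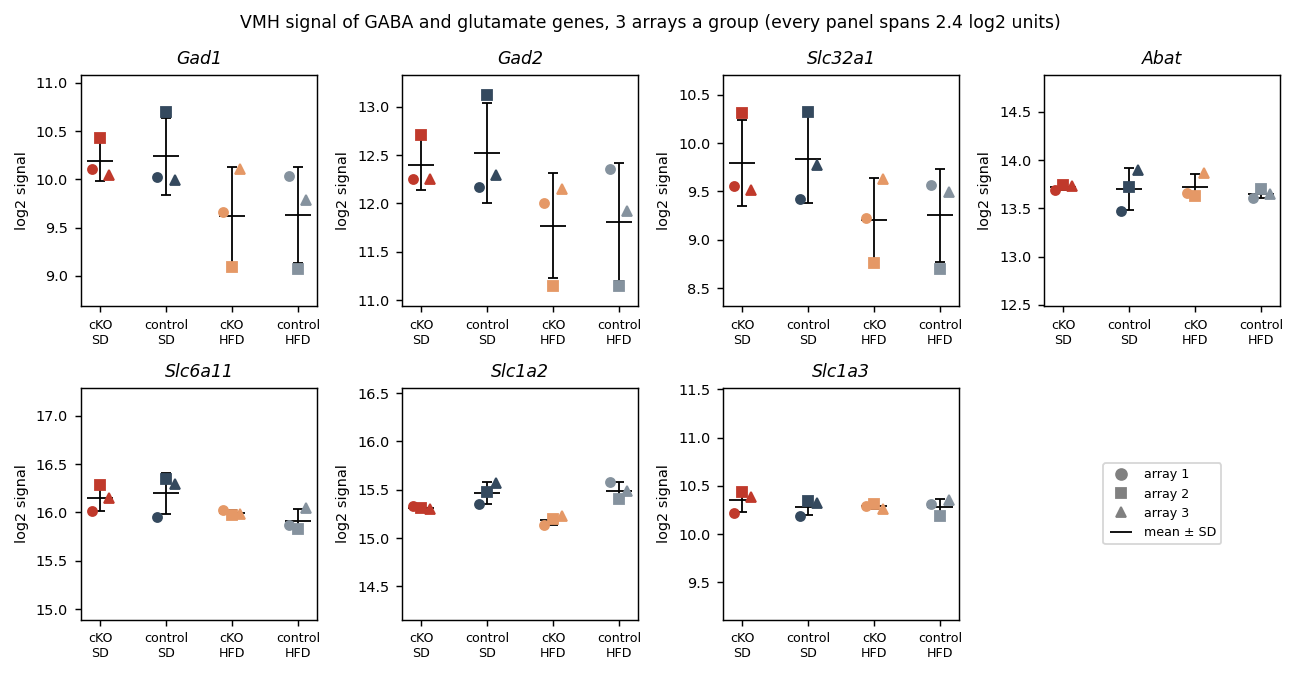
Log2 signal (vertical axis) of the 7 measured genes in cKO SD, control SD, cKO HFD and control HFD arrays (horizontal axis, 3 points a group, marked by array number), with the mean and SD of each group; every panel spans the same range. Gad1, Gad2 and Slc32a1 spread widely within groups and were lowest on array 2 of both HFD groups, while Slc1a2 was lower on all 6 cKO arrays than on all 6 control arrays.

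Gad1 and Gad2 encode the 2 glutamate decarboxylases that make GABA. Gad1 had log2 signals of 10.11, 10.43 and 10.04 on cKO SD arrays 1 to 3, against 10.02, 10.70 and 9.99 on control SD arrays 1 to 3. The HFD signals were 9.66, 9.09 and 10.11 on cKO arrays 1 to 3, against 10.03, 9.07 and 9.79 on control arrays 1 to 3. The genotypes overlapped on both diets, and array 2 was the highest of its group on SD and the lowest of its group on HFD in both genotypes. The genotype difference was -0.04 on SD (95% interval -0.70 to 0.62) and -0.01 on HFD (-0.67 to 0.65), with limma adjusted p of 0.993 and 0.996. These intervals are wide and leave room for a difference of either sign. With 1 array left out, the HFD difference ranged from -0.29 to 0.26.

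Gad2 gave the same picture. It had 12.25, 12.71 and 12.25 on cKO SD arrays 1 to 3, against 12.17, 13.12 and 12.29 on control SD arrays 1 to 3. With HFD the gene had 12.01, 11.15 and 12.15 on cKO arrays 1 to 3, against 12.36, 11.15 and 11.92 on control arrays 1 to 3. Array 2 was again the highest of both SD groups and the lowest of both HFD groups. The genotype difference was -0.12 on SD (interval -0.90 to 0.66, limma adjusted p = 0.976) and -0.04 on HFD (-0.82 to 0.74, adjusted p = 0.985). The HFD value ranged from -0.37 to 0.27 when 1 array was left out.

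Slc32a1 encodes the vesicular transporter that loads GABA and glycine into synaptic vesicles. Its signals were 9.56, 10.31 and 9.51 on cKO SD arrays 1 to 3, against 9.42, 10.32 and 9.77 on control SD arrays 1 to 3. On HFD they were 9.23, 8.76 and 9.63 on cKO arrays 1 to 3, against 9.57, 8.70 and 9.49 on control arrays 1 to 3. The genotypes overlapped on both diets, with differences of -0.05 on SD (interval -0.76 to 0.66, limma adjusted p = 0.992) and -0.05 on HFD (-0.76 to 0.66, adjusted p = 0.978). When 1 array was left out, the HFD value ranged from -0.33 to 0.18.

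These 3 genes of GABA neurons were lower on HFD in both genotypes, by amounts that did not pass the test. In cKO, HFD minus SD was -0.57 for Gad1, -0.64 for Gad2 and -0.58 for Slc32a1, and in control it was -0.60, -0.72 and -0.58 in the same order, with limma adjusted p from 0.587 to 0.668. In cKO the Gad2 arrays did not overlap between diets, as for 5.67% of all genes in the lower direction, and the arrays of Gad1 and of Slc32a1 did. Averaged over genotypes, a comparison added after the values were seen, the differences were -0.59 (interval -1.06 to -0.12) for Gad1, -0.68 (-1.23 to -0.12) for Gad2 and -0.58 (-1.09 to -0.08) for Slc32a1. The limma adjusted p was 0.302, 0.314 and 0.338, and 0.0123% of all genes passed. With Slc6a11 at -0.22 (interval -0.39 to -0.05, limma adjusted p = 0.297), 4 of the 7 genes were at an unadjusted p under 0.05 in that comparison, as were 12.8% of all genes, and 0 of 7 were called.

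The size of that diet difference depended on array 2 of each group. In cKO it was -0.31, -0.33 and -0.36 for Gad1, Gad2 and Slc32a1 without cKO HFD array 2, the array with the pituitary hormone signal. In control it was -0.32, -0.38 and -0.31 without control HFD array 2, and -0.37, -0.42 and -0.34 without control SD array 2. In cKO it was -0.46, -0.48 and -0.33 without cKO SD array 2. The sign stayed negative for all 3 genes in each of these fits.

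Marker levels of neurons and oligodendrocytes between the diets were as follows. Of 12 tested markers of hypothalamic GABA neurons, transcription factors and peptides such as Dlx1, Isl1 and Sst, 6 were higher and 6 lower on HFD averaged over genotypes, with a median of -0.01, and limma called 0, with 0 at an unadjusted p under 0.05. Their mean level ranged from 7.58 to 8.39 in cKO HFD, 7.62 to 7.83 in control HFD, 7.79 to 7.87 in cKO SD and 7.57 to 8.03 in control SD. Of 18 VMH neuron markers 16 were higher on HFD, with a median of 0.21 beside 0.02 over all genes, and limma called 0, with 8 at an unadjusted p under 0.05. Their mean level ranged from 9.74 to 9.88 in cKO HFD, 9.70 to 9.90 in control HFD, 9.54 to 9.66 in cKO SD and 9.50 to 9.58 in control SD. Of 12 general neuron markers 11 were higher on HFD averaged over genotypes, with a median of 0.11 and 0 called by limma, and 3 were at an unadjusted p under 0.05. In cKO all 12 were higher, with a median of 0.16 and 6 at an unadjusted p under 0.05, and in control 6 were higher and 6 lower, with a median of 0.02. Slc17a6, the vesicular glutamate transporter of VMH neurons, stood at 0.30 (SE 0.07, limma adjusted p = 0.193). Of 12 oligodendrocyte markers 10 were lower on HFD averaged over genotypes, with a median of -0.28, and in control all 12 were lower, with a median of -0.40, and limma called 0 in either comparison, with 1 and 0 at an unadjusted p under 0.05. Over all genes, 12.8% were at an unadjusted p under 0.05 averaged over genotypes, 9.56% in cKO and 8.49% in control. The part of the marker levels in the diet difference of Gad1, Gad2 and Slc32a1 was not tested.

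**Figure D2:**
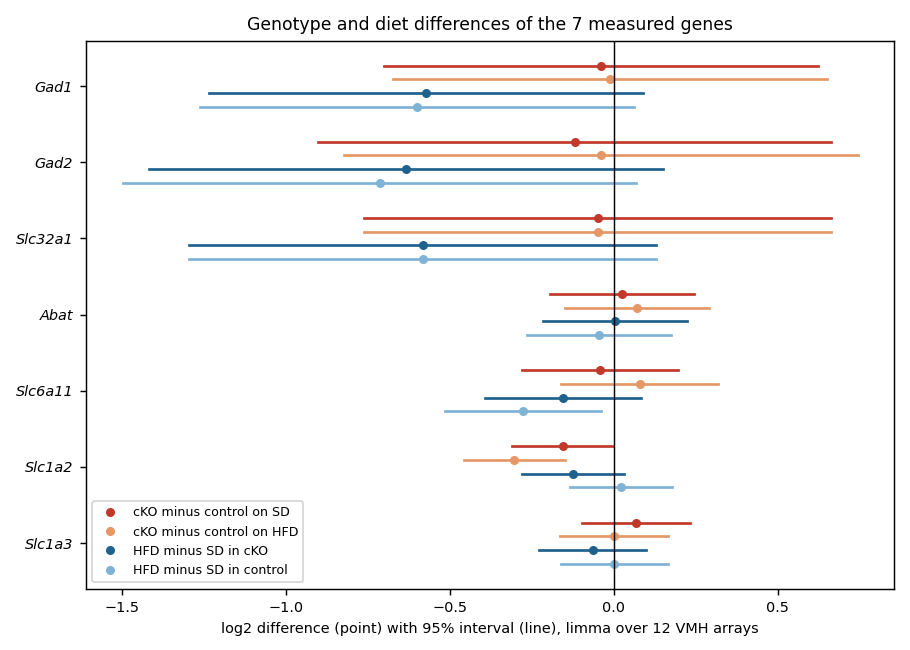
Log2 difference (horizontal axis; point) with its 95% interval (line) for the 7 measured genes, for cKO minus control on SD and on HFD and for HFD minus SD in cKO and in control. The intervals of Gad1, Gad2 and Slc32a1 are the widest, and those of Slc1a2 between genotypes lie below 0 on both diets.

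Abat, the transaminase that breaks GABA down in mitochondria, spanned 0.426 over the 12 arrays. It had 13.69, 13.74 and 13.73 on cKO SD arrays 1 to 3, against 13.47, 13.72 and 13.90 on control SD arrays 1 to 3. On HFD it had 13.66, 13.63 and 13.87 on cKO arrays 1 to 3, against 13.61, 13.70 and 13.65 on control arrays 1 to 3. The groups overlapped in all 4 comparisons. Genotype differences were 0.02 on SD (interval -0.20 to 0.24, limma adjusted p = 0.982) and 0.07 on HFD (-0.15 to 0.29, adjusted p = 0.832), and diet differences were 0.00 in cKO (-0.22 to 0.22) and -0.04 in control (-0.26 to 0.18).

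Slc6a11 encodes a GABA transporter that takes up GABA mainly into astrocytes. It had 16.02, 16.28 and 16.15 on cKO SD arrays 1 to 3, against 15.95, 16.35 and 16.29 on control SD arrays 1 to 3. The HFD signals were 16.03, 15.97 and 15.98 on cKO arrays 1 to 3, against 15.87, 15.83 and 16.05 on control arrays 1 to 3. The groups overlapped in all 4 comparisons. The genotype difference was -0.04 on SD (interval -0.28 to 0.20, limma adjusted p = 0.966) and 0.08 on HFD (-0.16 to 0.32, adjusted p = 0.828). For diet it was -0.16 in cKO (-0.39 to 0.08, adjusted p = 0.688) and -0.28 in control (-0.52 to -0.04, adjusted p = 0.537).

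Slc1a2 encodes the main glutamate uptake transporter of astrocytes, which keeps synaptic glutamate low. On SD it had 15.33, 15.31 and 15.30 on cKO arrays 1 to 3, against 15.35, 15.48 and 15.57 on control arrays 1 to 3. With HFD the gene had 15.13, 15.20 and 15.23 on cKO arrays 1 to 3, against 15.58, 15.40 and 15.49 on control arrays 1 to 3. Every cKO array was below every control array within each diet, and all 6 cKO arrays were also below all 6 control arrays, as for 0.185% of all genes in the lower direction. Within a diet, 2.92% of all genes on SD and 7.08% on HFD did not overlap in that direction. Between the diets Slc1a2 stood at -0.13 in cKO (interval -0.28 to 0.03, limma adjusted p = 0.618), with no overlap, as for 5.67% of all genes in the lower direction, and at 0.02 in control (-0.13 to 0.18, adjusted p = 0.961), with overlap.

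The Slc1a2 difference between genotypes was small and did not pass. It was -0.16 on SD (interval -0.31 to just below 0, limma adjusted p = 0.739), -0.30 on HFD (-0.46 to -0.15, adjusted p = 0.149) and -0.23 averaged over diets (-0.34 to -0.12, adjusted p = 0.0823). The test of the difference between the diets gave -0.15 (-0.37 to 0.07, adjusted p = 0.899), so a larger genotype difference on HFD was not shown. Quantile normalization brought the value to -0.48 on HFD (limma adjusted p = 0.0108) and to -0.34 averaged over diets (0.00573), both past the threshold. Without control SD array 1 the averaged value was -0.26 and also passed (0.0339), and without cKO HFD array 2 it was -0.23 (0.199). The value on HFD alone was -0.31 without cKO HFD array 2 (limma adjusted p = 0.403).

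Marker levels of other glia and of neurons beside the Slc1a2 difference were as follows. Of 17 tested astrocyte markers, 12 were higher in cKO on SD and 13 on HFD. Their medians were 0.08 and 0.09, beside 0.02 and 0.03 over all genes. Single markers ranged from -0.46 to 1.53 on SD and from -0.31 to 1.09 on HFD. By limma 0 were called on either diet, with 5 and 6 at an unadjusted p under 0.05, beside 6.71% and 11.3% of all genes. Averaged over diets the 17 ranged from -0.38 to 1.31, and 8 were at an unadjusted p under 0.05, beside 11.5% of all genes. In that comparison limma called 1 of 17, the astrocyte water channel gene Aqp4, which rose by 0.48 (adjusted p = 0.0479). Their mean level ranged from 10.25 to 10.52 in cKO SD and 9.98 to 10.44 in control SD, and from 10.30 to 10.41 in cKO HFD and 10.12 to 10.29 in control HFD. Of 12 tested oligodendrocyte markers, 11 were lower in cKO on SD and 9 on HFD, with medians of -0.70 and -0.41 and 0 called by limma, and 4 and 1 were at an unadjusted p under 0.05. Their mean level ranged from 9.28 to 10.26 in cKO SD and 9.71 to 11.10 in control SD, and from 9.54 to 9.77 in cKO HFD and 9.88 to 10.16 in control HFD. The 6 tested tanycyte markers were all higher in cKO on both diets, with medians of 0.27 on SD and 0.16 on HFD and 0 called by limma, and averaged over diets 3 were at an unadjusted p under 0.05. Their mean level ranged from 7.90 to 8.22 in cKO SD and 7.46 to 7.99 in control SD, and from 7.56 to 8.30 in cKO HFD and 7.35 to 7.76 in control HFD. Of 12 general neuron markers 5 were higher in cKO on SD and 10 on HFD, with medians of -0.02 and 0.12 and 1 and 3 at an unadjusted p under 0.05. Among them only Stmn2, a stathmin of neurons, was called by limma between genotypes. It rose by 0.70 on SD (adjusted p = 0.00156) and by 0.89 on HFD (0.000565). The cause of that rise was not tested, and Stmn2 alone does not stand for neurons as a whole. Beside the counts of the other lists stand the same shares of all genes at an unadjusted p under 0.05: 6.71% on SD, 11.3% on HFD and 11.5% averaged over diets. The part of the marker levels in the Slc1a2 difference was not tested.

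Slc1a3, the other astrocyte glutamate transporter of the set, did not share the order of Slc1a2. It had 10.22, 10.44 and 10.39 on cKO SD arrays 1 to 3, against 10.19, 10.34 and 10.32 on control SD arrays 1 to 3. On HFD it had 10.29, 10.31 and 10.26 on cKO arrays 1 to 3, against 10.31, 10.19 and 10.35 on control arrays 1 to 3. The groups overlapped on both diets, and the whole range over the 12 arrays was 0.256. The difference was 0.07 on SD (interval -0.10 to 0.23, limma adjusted p = 0.92) and 0.00 on HFD (-0.16 to 0.17, adjusted p = 0.999).

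The genes differed in how far arrays of the same group lay apart. The pooled SD within groups was 0.423 for Gad1, 0.502 for Gad2 and 0.456 for Slc32a1, above the SD of 98.5%, 99.1% and 98.8% of all genes tested. It was 0.14 for Slc6a11, 0.127 for Abat, 0.085 for Slc1a3 and 0.0781 for Slc1a2, beside a median of 0.12 over all genes. A change of a given size is therefore measured with less precision in the GABA neuron genes than in the transporters of astrocytes.

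Deviations from the group means were compared for the 21 pairs of genes over the 12 arrays, and 4 pairs passed an adjusted permutation p of 0.05. The permutations shuffled arrays across groups, although deviations within a group are not independent, so these p-values may be too small. Gad1 and Gad2 had a Pearson r of 0.97 and a Spearman rho of 0.96 (permutation p = 1e-05, the smallest that 100000 resamples give, and 2e-05; adjusted 0.00021 and 0.00042). Gad1 and Slc32a1 had an r of 0.93 and a rho of 0.91 (permutation p = 4e-05 and 0.00011; adjusted 0.00028 and 0.00077). Gad2 and Slc32a1 had an r of 0.93 and a rho of 0.92 (permutation p = 3e-05 and 0.00011; adjusted 0.00028 and 0.00077). The 3 genes were thus high or low on the same arrays within a group.

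The fourth pair joined the astrocyte transporters Slc6a11 and Slc1a3, with an r of 0.85 and a rho of 0.87 (permutation p = 0.00034 and 0.00043; adjusted 0.0018 and 0.0023). Without the 2 arrays farthest from the median of the first gene of each pair, r was 0.95 for Gad1 and Gad2, 0.90 for Gad1 and Slc32a1, 0.90 for Gad2 and Slc32a1 and 0.86 for Slc6a11 and Slc1a3. Without cKO HFD array 2 these values were 0.96, 0.92, 0.92 and 0.87. Slc1a2 passed with no other gene of the set, its highest r being 0.61 with Abat (permutation p = 0.033, adjusted 0.12), and that r was 0.00 without the 2 farthest arrays.

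**Figure D3:**
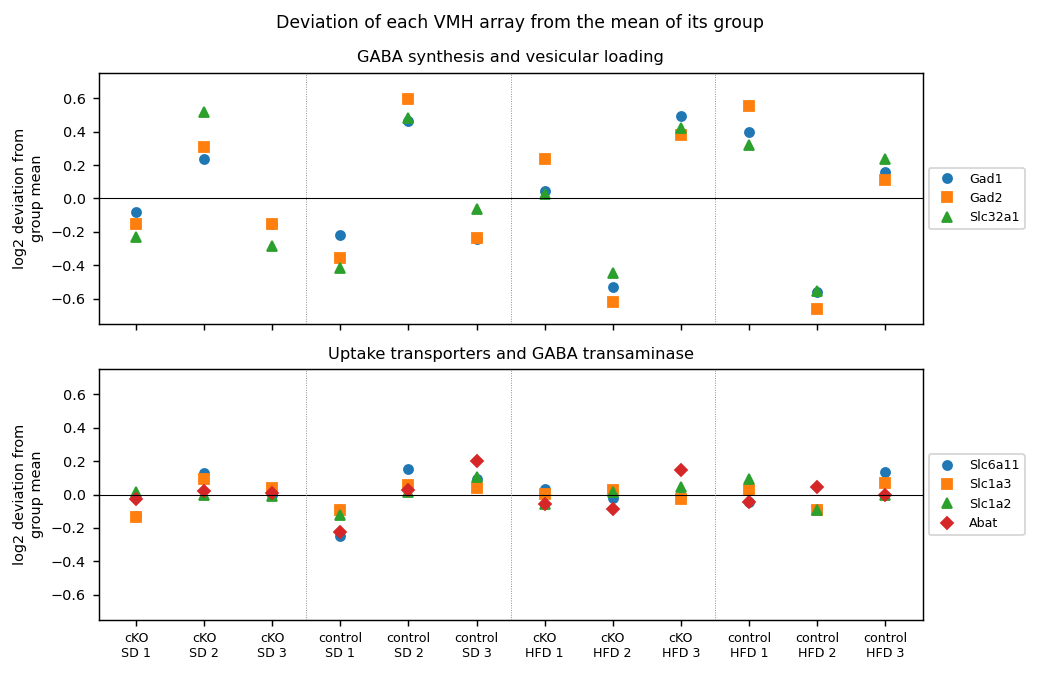
Deviation of each of the 12 VMH arrays from the mean of its group, in log2 units (vertical axis), with arrays ordered by group along the horizontal axis; the upper panel holds Gad1, Gad2 and Slc32a1 and the lower panel Slc6a11, Slc1a3, Slc1a2 and Abat. The 3 GABA neuron genes deviate with the same sign on each of the 12 arrays and lie lowest on array 2 of both HFD groups, and the lower panel stays much closer to 0.

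Over all genes tested, those whose deviations were most like Gad1 were Nrxn3, which encodes a presynaptic neurexin (r = 0.98), Gad2 (0.97) and Dlx1, a transcription factor of forebrain GABA neurons (0.95). For Slc32a1 they were Gad1 (0.93), Gad2 (0.93) and Erbb4, a neuregulin receptor (0.91). For Slc6a11 they were Nell1 (0.97), Gm15616 (0.95) and Desi1 (0.95), and for Slc1a2 Syt4, a synaptotagmin (0.95), Gm11703 (0.95) and Gm11353 (0.95). Each r is over 12 arrays, and the genes were picked as the highest of 16211, so high values are built into the choice.

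Among the fixed marker lists, 4 of 12 tested GABA neuron markers had an r above 0.5 with Gad1, beside 7.91% of all genes. The median r of the 12 was 0.34, from 0.02 for Sst to 0.95 for Dlx1. The 18 VMH neuron markers had a median r of -0.36 with Gad1, from -0.86 for Gda to 0.19 for Esr1. Slc17a6, which is among these 18 markers, had an r of -0.74 with Gad1. On these 12 arrays, more Gad1 signal than the group mean tended to go with less signal of these VMH neuron genes. The share of all genes with a negative r with Gad1 is not given here, so these values have no background beside them. With Slc1a2, 9 of 12 oligodendrocyte markers had an r above 0.5 (median 0.53) and 7 of 17 astrocyte markers did (median 0.45, highest 0.92 for Aqp4), beside 19.2% of all genes. These values are descriptions over 12 arrays that share dissection and array processing.

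Of 39 other genes of GABA and glutamate transport and metabolism, 34 had a row of their own and 30 were bright enough to be tested in VMH. On SD and on HFD 0 of 30 passed between genotypes, with 4 and 6 at an unadjusted p under 0.05, beside 6.71% and 11.3% of all genes. Averaged over diets 2 of 30 rose in cKO, beside 0.555% of all genes, and 0 fell, and the median of the 30 was -0.01 beside 0.02 over all genes.

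Aldh5a1 encodes succinic semialdehyde dehydrogenase, which follows Abat in the breakdown of GABA. On SD it had 10.89, 11.32 and 11.13 on cKO arrays 1 to 3, against 10.17, 10.78 and 10.52 on control arrays 1 to 3. The HFD signals were 11.24, 11.11 and 10.98 on cKO arrays 1 to 3, against 10.54, 10.15 and 10.36 on control arrays 1 to 3. All 6 cKO arrays were above all 6 control arrays, as for 0.944% of all genes in the higher direction. It rose by 0.69 averaged over diets (interval 0.44 to 0.94, limma adjusted p = 0.0191), with differences of 0.62 on SD (adjusted p = 0.37) and 0.76 on HFD (adjusted p = 0.111) that did not pass alone. The averaged call ended in 6 of 12 fits that left out 1 array: without cKO SD array 2 or 3, control HFD array 2 or 3, or cKO HFD array 1 or 2 (values 0.64 to 0.69, adjusted p 0.0526 to 0.06).

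Slc38a3 encodes a glutamine transporter through which astrocytes release glutamine. On SD it had 9.75, 10.30 and 10.18 on cKO arrays 1 to 3, against 9.43, 9.59 and 9.80 on control arrays 1 to 3, with 1 cKO array below the highest control array. With HFD the gene had 9.86, 9.85 and 9.93 on cKO arrays 1 to 3, against 9.30, 9.32 and 9.47 on control arrays 1 to 3, with no overlap, as for 13.1% of all genes in the higher direction. It rose by 0.49 averaged over diets (interval 0.28 to 0.70, limma adjusted p = 0.0494), a value next to the threshold. The call held without control SD array 3 and without cKO SD array 1, and ended without any other single array (values 0.43 to 0.52, adjusted p 0.0802 to 0.144). It also ended without the filter on low signals (adjusted p = 0.0772).

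Of the other pathway genes with the smallest p between genotypes, Slc25a18, a mitochondrial glutamate carrier, stood at 0.55 averaged over diets (SE 0.13, limma adjusted p = 0.108). Folh1, the peptidase that releases glutamate from N-acetylaspartylglutamate, stood at -0.69 (SE 0.17, adjusted p = 0.147). On HFD the taurine transporter gene Slc6a6 stood at -0.26 (SE 0.08, adjusted p = 0.246). None of these 3 passed.

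**Figure D4:**
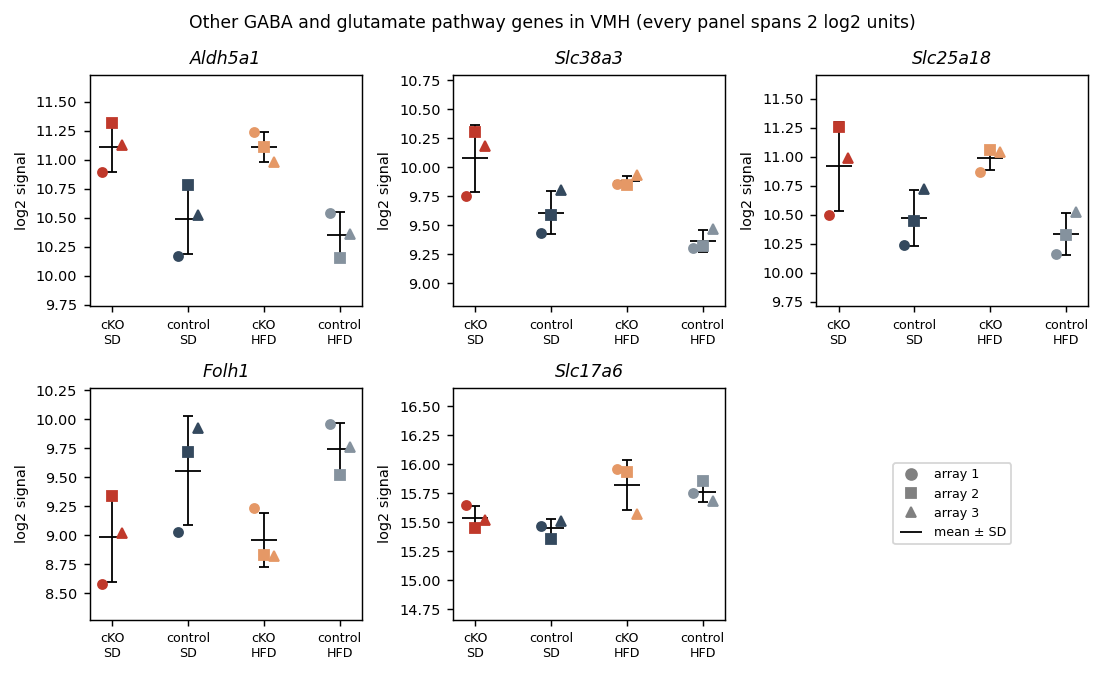
Log2 signal (vertical axis) of Aldh5a1, Slc38a3, Slc25a18, Folh1 and Slc17a6 in cKO SD, control SD, cKO HFD and control HFD arrays (horizontal axis, 3 points a group), with the mean and SD of each group; every panel spans the same range. Aldh5a1 was higher on all 6 cKO arrays than on all 6 control arrays, the Folh1 means were lower in cKO on both diets, and the Slc17a6 means were higher on HFD in both genotypes.

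Between the diets 0 of the 30 other pathway genes passed in cKO, in control or averaged over genotypes, with 7, 1 and 4 at an unadjusted p under 0.05, beside 9.56%, 8.49% and 12.8% of all genes. Slc17a6 had 15.96, 15.93 and 15.57 on cKO HFD arrays 1 to 3, against 15.65, 15.45 and 15.52 on cKO SD arrays 1 to 3. It had 15.75, 15.86 and 15.68 on control HFD arrays 1 to 3, against 15.47, 15.36 and 15.51 on control SD arrays 1 to 3. The diets did not overlap in control, as for 8.69% of all genes in the higher direction, and overlapped in cKO, with differences of 0.32 (limma adjusted p = 0.485) in control and 0.28 (0.436) in cKO.

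In cKO, Slc38a2, a transporter of neutral amino acids including glutamine, stood at -0.69 for HFD minus SD (SE 0.22, limma adjusted p = 0.347), Slc25a12, a mitochondrial aspartate and glutamate carrier, at 0.17 (0.399) and Slc6a6 at -0.20 (0.444). In control, Slc1a1, the neuronal glutamate transporter, stood at 0.13 (adjusted p = 0.664), Slc38a3 at -0.24 (0.667) and Aldh9a1, an aldehyde dehydrogenase, at 0.12 (0.706). For the interaction the smallest p were those of Slc7a11, the cystine and glutamate exchanger, at -0.61 (limma adjusted p = 0.873), and of Slc25a12 at 0.16, the GABA transporter gene Slc6a13 at -0.86 and Maob at -0.29, each with an adjusted p of 0.88. None of these passed.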

How the data were processed

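Affymetrix arrays measured total RNA. The authors' deposited table holds log2 signals, 1 column for each of 24 arrays. Per the submitters' processing notes, PLIER 2.0 and Affymetrix Expression Console 1.1.1 were used, with no role recorded. How arrays were normalized against each other, and on which build, is not given in the sources used here. Of 72688 rows, 6732 were controls, 30604 had 1 gene symbol, 2146 several and 33206 none. Symbols were updated for 827 rows through a GRCm38.p6 gene table, used only for names.

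The 12 VMH arrays entered 1 fit of 4 group means in limma 3.58.1 (R 4.3.3), without a replicate block. P-values are two-sided, adjusted by Benjamini-Hochberg over 16211 genes, with a threshold of 0.05. SD is within a group, SE and 95% intervals are from the fit. Correlations used two-sided permutation tests that shuffled arrays across groups, adjusted over 21 pairs. The number of arrays limits precision. On simulated data for cKO minus control on HFD over 16211 genes, 94% of changes of 1 and 97% of changes of 2 were recovered, with 7 false among 198 calls. These log2 changes were given to genes drawn at random and were larger than any difference of the 7 measured genes. The recovery therefore does not give the power for changes of that smaller size, or for genes that spread as widely as Gad1, Gad2 and Slc32a1.

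The members, gene lists and tests were chosen with earlier results of these data known. The rule named all members, other pathway genes past the threshold or with the 4 smallest p in a comparison, and the 3 genes most like Slc6a11, Gad1, Slc32a1 and Slc1a2. Added after seeing the values were the diet comparison averaged over genotypes and fits without cKO HFD array 2 for correlations. Alternatives were array weights, quantile normalization, leaving out each array, a fit of only the groups compared, a pseudocount of 16, a robust prior with a trend, averaging a gene's rows, a block for the replicate number and no filter. Brown fat arrays entered no test.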

Additional observations from a re-analysis of the deposited data

Results flagged for a closer look

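In brown adipose tissue, which entered no comparison above, the Abat signal on HFD was 4.37 ± 0.02 in cKO and 4.18 ± 0.03 in control (SD, n = 3 each), a difference of 0.19 with groups that did not overlap, as for 7.33% of 17124 genes in the higher direction there. On SD the groups overlapped, with 4.40 to 4.82 in cKO and 4.13 to 4.73 in control. The 7 genes were searched on both diets for cKO arrays all above the control arrays, in data outside the VMH comparisons. The lack of overlap is therefore the rule that picked Abat on HFD, and not a separate result. Both means lie close to the table's median of 4.1275 in that tissue, and the difference was not tested.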

How the results depend on the processing

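The count of the 7 genes past the threshold was 0 in all 7 comparisons and stayed 0 under every alternative except these, where it was 1 (Slc1a2, lower in cKO): quantile normalization and array weights for cKO minus control on HFD, and quantile normalization, array weights and the fit without control SD array 1 for the average over diets. With 1 array left out, the count ranged from 0 to 1 for the average over diets and was 0 for the other comparisons. With array weights Slc1a2 stood at -0.31 on HFD (limma adjusted p = 0.0391) and -0.24 averaged (0.0172). Of 959 values of the 7 genes under alternatives, 83 turned sign, 0 of them past the threshold, all of genes whose reported difference was at most 0.12 in size. The 4 correlated pairs stayed 4 under quantile normalization, the pseudocount and the mean of a gene's rows.

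Replicate numbers were not used as pairs. Of 18 same-numbered pairs of arrays, 3 had deviations correlated above 0.1 (range -0.35 to 0.28, median -0.01). The 36 other pairs of arrays from different groups ranged from -0.25 to 0.34, with a median of 0.01. With the replicate block the adjusted p of Aldh5a1 averaged over diets was 0.0515 and that of Slc25a18 0.0271, and the count of the 7 genes stayed 0. With array weights Aldh5a1 on HFD (0.0317), and Slc25a18 (0.039) and Folh1 (0.0246) averaged over diets, passed. Folh1 also passed without control SD array 1 (0.0339) and Slc25a18 without cKO SD array 1 (0.0194). The cause was not tested.

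Counts over all genes moved too. On SD, 44 genes became 10 with only the groups compared and 22 to 29 without cKO SD array 2 or 3 or control SD array 2. On HFD, 49 became 121 with array weights and 31 or 32 without control HFD array 1 or 3 or cKO HFD array 2 or 3. Averaged over diets, 107 became 208 with array weights. For HFD minus SD in cKO, 1 became 20 with array weights, 0 with only the groups compared, and 2 or 3 under quantile normalization or without cKO SD array 2 or 3, control HFD array 2 or cKO HFD array 1. For diet averaged over genotypes, 2 became 27 with array weights, 5 with the pseudocount or without control SD array 1, 0 with the block, and 0 or 1 without control SD array 3, cKO SD array 1, any control HFD array or cKO HFD array 2.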

Other observations

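In brown adipose tissue the mean log2 signal over 12 arrays was 7.89 for Slc1a3 and 4.41 for Abat, above the table's median of 4.1275 there. Slc6a11 (3.94), Gad2 (3.66), Gad1 (3.59), Slc1a2 (3.44) and Slc32a1 (3.26) lay below it. Signals of different rows are not set against each other here, and no test was run in that tissue.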
